A study of Mus musculus with 8 samples.

Results

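Keratins are the intermediate filament proteins of epithelial cells, and their genes were examined here in fibroblasts sorted from mouse skin. The members were all genes whose symbol is Krt followed by a number and at most 1 letter, which leaves out the keratin associated proteins. Of 17097 genes that the arrays measured, 41 were keratins, read by 50 probe sets, and 7 of the 41 had more than 1 probe set. Each gene was represented by its brightest probe set over the arrays compared. Another 13 keratins of the RefSeq gene table, Krt17 among them, were not analysed here.

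Female mice were put on a diet rich in fat (HFD) or kept on a normal one (ND) at 2 months of age, and the diets lasted 6 months. The labels name no strain and no other treatment. From each mouse 10000 dermal cells were sorted that carried Pdgfra and CD34 and lacked CD45, CD117, CD24, CD31 and EpCam, the last a protein of epithelial cells. The subdermis had been removed, and the rest of the skin was digested with collagenase, with no step named that takes off the epidermis first. Before hybridisation to mouse expression arrays, the RNA went through 20 cycles of amplification. HFD 1 to 4 were compared with ND 1 to 3, since ND 4 is labelled as left out on quality control, for which no reason is given. Its values are given beside the others where they bear on a result. The design text gives 4 animals per diet, so each array was taken as 1 mouse, p-values measure only the spread between these arrays, and 4 against 3 arrays limit the precision of every value.

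A keratin filament is built from a type I and a type II chain in equal amounts. Cells of the basal layer of the epidermis make Krt5 (type II) and Krt14 (type I). Once they leave that layer they switch to Krt1 (type II) and Krt10 (type I), while other keratins mark the root sheaths and the shaft of the hair. Fibroblasts use vimentin for their intermediate filaments and are not known for keratins, so keratin signal in a fibroblast sort is read in the field as a sign of epidermal RNA. Whether it came from epidermal cells, from free RNA or from the sorted cells was not tested. In bulk RNA a change in the number of cells of a type and a change in their RNA per cell cannot be told apart.

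The results turn on a few basal and suprabasal keratins, so the stretches before the start sites of 4 of them are shown, taken from RefSeq (GRCm38.p6). All 4 lie on the minus strand and are written 5′ to 3′ over the 250 bases before the annotated start. Krt5 is at chr15:101712906-101713155, Krt14 at chr11:100206031-100206280, Krt10 at chr11:99389365-99389614 and Krt77 at chr15:101869706-101869955. Capitals mark every match on either strand to a TATA-like motif, which was TATAAA in one form, TATATA in another and ATAAAA in a last one, or to the AP-1 motif TGANTCA, where N is any base. Matches to the TATA-like forms can overlap one another.
Krt5: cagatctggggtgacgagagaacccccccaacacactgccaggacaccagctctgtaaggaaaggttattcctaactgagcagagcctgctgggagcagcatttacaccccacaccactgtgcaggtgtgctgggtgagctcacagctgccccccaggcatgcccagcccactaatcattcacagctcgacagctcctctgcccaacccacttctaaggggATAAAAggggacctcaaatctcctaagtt
Krt14: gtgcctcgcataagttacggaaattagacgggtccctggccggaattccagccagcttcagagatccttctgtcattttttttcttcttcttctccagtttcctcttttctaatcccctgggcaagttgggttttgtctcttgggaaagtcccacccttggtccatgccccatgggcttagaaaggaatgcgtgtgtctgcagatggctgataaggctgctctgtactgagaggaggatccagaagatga
Krt10: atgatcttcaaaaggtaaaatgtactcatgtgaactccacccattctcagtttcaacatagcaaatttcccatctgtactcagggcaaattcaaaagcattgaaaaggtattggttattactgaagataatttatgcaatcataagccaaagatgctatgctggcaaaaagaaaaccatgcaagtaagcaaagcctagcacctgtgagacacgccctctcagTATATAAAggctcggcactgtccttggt
Krt77: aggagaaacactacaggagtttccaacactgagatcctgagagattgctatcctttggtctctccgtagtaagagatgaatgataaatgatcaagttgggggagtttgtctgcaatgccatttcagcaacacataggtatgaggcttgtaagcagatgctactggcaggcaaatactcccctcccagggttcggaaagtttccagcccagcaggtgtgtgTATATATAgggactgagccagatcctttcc
Krt10 held TATAAA at 26 to 21 and TATATA at 28 to 23 bases before the start. Krt77 held TATATA at 30 to 25 and again at 28 to 23 bases, and Krt5 held ATAAAA at 29 to 24 bases. None of the 4 motifs occurs in the window given for Krt14, and TGANTCA is in none of these 4 windows. Of 27 RefSeq windows of 26 measured keratins, 21 (77.8%) held at least 1 of the TATA-like motifs, against 25.4% of all 32851 windows of that length. TATAAA alone was in 44.4% of the keratin windows and 12.4% of all windows, TATATA in 25.9% and 5.25%, and ATAAAA in 48.1% and 17.0%. TGANTCA was in 7.41% and 6.75%. These matches are a description of the letters only.

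Among the 41 keratins 1 passed the test between the diets, Krt2, which was higher in HFD (limma over all genes, Benjamini-Hochberg adjusted p under 0.05). That is 1 higher, 0 lower and 40 not called, where 5.35% of all genes were called, 2.62% of all genes higher and 2.73% lower. At an unadjusted p under 0.05, 5 keratins were higher and 1 lower, against 12.3% and 9.83% of all genes. The log2 changes, HFD minus ND, ran from −0.19 to 1.86, with a median of 0.04 over the keratins and 0.02 over all genes. The 5 largest changes were those of Krt77, Krt1, Krt5, Krt79 of the follicle duct and Krt10. The 9 basal and suprabasal keratins had a median change of 0.47, the 10 hair shaft keratins −0.03, and the 5 simple epithelial keratins 0.01. None of these medians was tested.

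**Figure D1:**
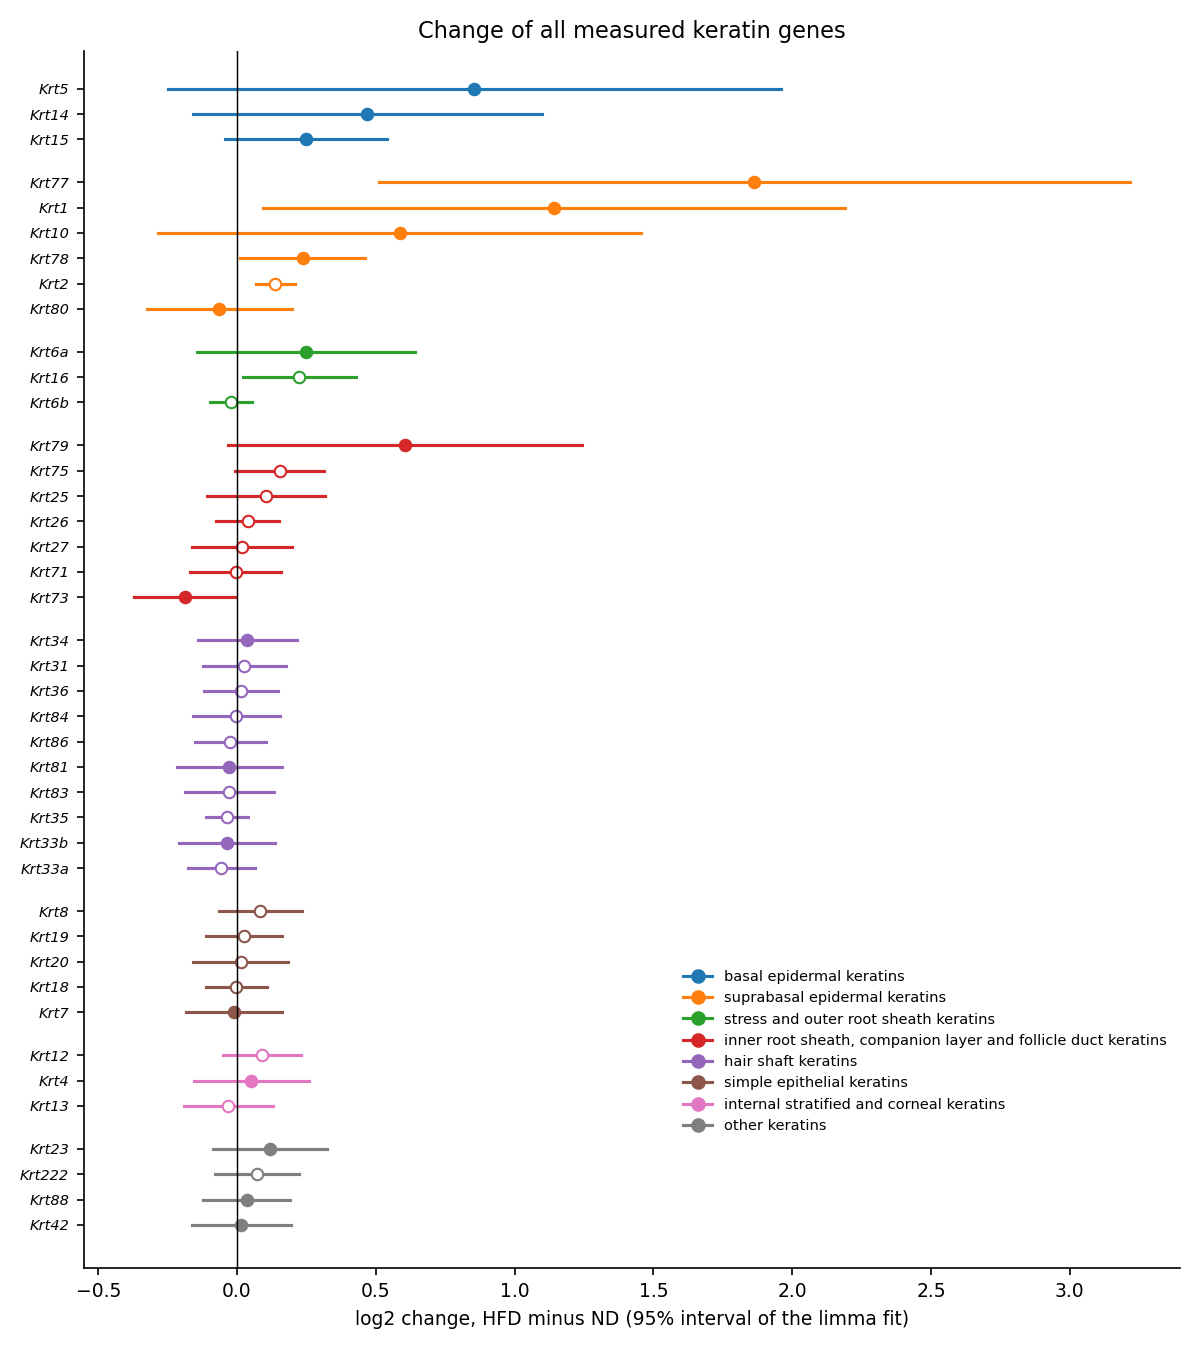
Log2 change, HFD minus ND, of each of the 41 keratins, with its 95% interval from the limma fit, grouped by class. Filled points mark genes brighter than the 95th percentile of olfactory and vomeronasal receptor genes. Krt77 (1.86), Krt1 (1.14) and Krt5 (0.86) lie farthest right with the widest intervals, and the hair shaft keratins lie within 0.06 of 0.

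No detection calls were used, so olfactory and vomeronasal receptor genes, which skin is not known to use, served as a yardstick for dim signal. Of 74 such genes the median level was 4.56 and the 95th percentile 5.96 on the log2 scale. Mean signal was above that percentile for 19 keratins and below it for 22. Probe sets differ in how well they bind, so this describes signal and ranks no gene above another in amount. All 3 basal and 5 of 6 suprabasal keratins were above it, but only 3 of 10 hair shaft, 2 of 7 inner root sheath and follicle duct, and 1 of 5 simple epithelial keratins.

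Krt5, the type II keratin of basal cells, had log2 values of 7.44, 9.35, 9.65 and 9.74 in HFD 1 to 4, against 8.84, 7.64 and 8.09 in ND 1 to 3. HFD 2, 3 and 4 were above every ND array of the comparison, while HFD 1 was below them all. The mean was 9.05 ± 1.08 in HFD (SD, n = 4) and 8.19 ± 0.61 in ND (SD, n = 3), a log2 change of 0.86 (SE 0.50, limma adjusted p = 0.358). Its partner Krt14 had 6.47, 7.65, 7.70 and 7.87 in HFD 1 to 4, against 7.05, 6.72 and 7.09 in ND 1 to 3. The order was alike, with HFD 1 lowest of all and the other HFD arrays above ND 1 to 3. The change was 0.47 (SE 0.28, limma adjusted p = 0.377). The brighter probe set used for Krt14 is of the kind that can bind related transcripts. Its other probe set also had HFD 2 to 4 above ND 1 to 3, up to 7.67 in HFD 4. There HFD 1 and ND 2 were both lowest at 6.67, and the change was 0.53 (SE 0.21).

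HFD 1 decided the call for this basal pair. Without it Krt5 changed by 1.39 (SE 0.26, limma adjusted p = 0.0237) and Krt14 by 0.79 (SE 0.12, adjusted p = 0.0170). In that fit 4 of the 41 keratins passed, Krt2, Krt5, Krt14 and Krt75, where 1072 of all 17097 genes did. With HFD 1 kept, 914 of all genes passed. Over all alternatives the adjusted p ran from 0.0237 to 0.999 for Krt5 and from 0.0170 to 0.999 for Krt14. ND 4, left out by its label, had 9.15 for Krt5 and 7.73 for Krt14, which is within the range of HFD 2 to 4 for Krt14 and above ND 1 to 3 for both. With ND 4 included the changes were 0.62 for Krt5 (adjusted p = 0.575) and 0.28 for Krt14 (adjusted p = 0.696). Krt15, a keratin of basal cells and the follicle bulge, had 6.22, 6.83, 6.56 and 6.62 in HFD 1 to 4, against 6.39, 6.39 and 6.15 in ND 1 to 3. HFD 2 to 4 lay above ND 1 to 3 and HFD 1 among them, with a change of 0.25 (SE 0.13, limma adjusted p = 0.308). ND 4 was at 6.79, above HFD 1, 3 and 4.

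**Figure D2:**
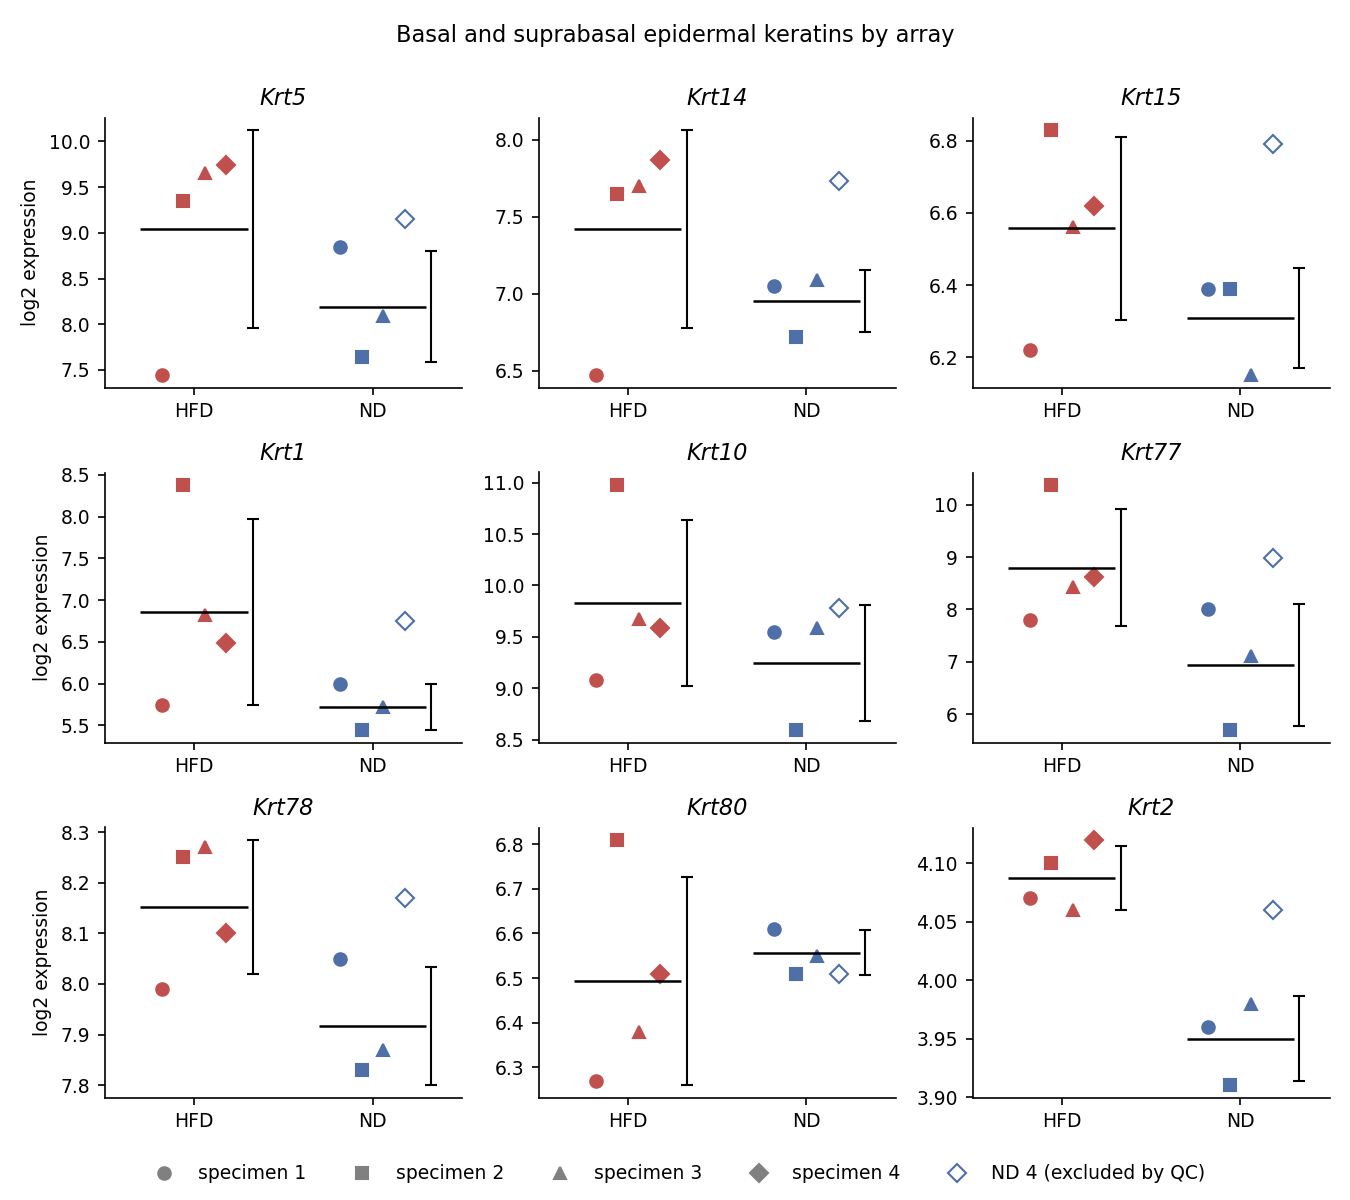
Log2 expression of the basal (Krt5, Krt14, Krt15) and suprabasal (Krt1, Krt10, Krt77, Krt78, Krt80, Krt2) keratins in each array, HFD left of ND, with the mean (line) and SD (bar) of HFD 1 to 4 and ND 1 to 3. The open diamond is ND 4, which enters neither. HFD 1 is the lowest point for Krt5 (7.44) and Krt14 (6.47), and HFD 2 the highest for Krt1 (8.38), Krt10 (10.98) and Krt77 (10.38).

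Krt77, a type II keratin of the suprabasal layers of mouse skin, had the largest difference of all 17097 genes in either direction. It had 7.79, 10.38, 8.42 and 8.61 in HFD 1 to 4, against 8.01, 5.69 and 7.11 in ND 1 to 3. HFD 2, 3 and 4 were above ND 1 to 3, HFD 1 lay between ND 1 and ND 3, and ND 2 was far below the rest. The mean was 8.80 ± 1.11 in HFD (SD, n = 4) and 6.94 ± 1.17 in ND (SD, n = 3), a change of 1.86 (SE 0.61) or 3.64-fold. The gene did not pass (limma adjusted p = 0.102, and 0.0627 to 0.999 over the alternatives). The change was 1.34 without HFD 2 and 1.24 without ND 2. ND 4 was at 8.99, above HFD 1, 3 and 4, and with it included the change was 1.35 (limma adjusted p = 0.348).

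Krt1 and Krt10, the suprabasal pair, had the same highest array. Krt1 had 5.74, 8.38, 6.82 and 6.49 in HFD 1 to 4, against 5.99, 5.44 and 5.72 in ND 1 to 3, a change of 1.14 (SE 0.47, limma adjusted p = 0.189). Krt10 had 9.08, 10.98, 9.67 and 9.59 in HFD 1 to 4, against 9.55, 8.59 and 9.59 in ND 1 to 3, a change of 0.59 (SE 0.39, limma adjusted p = 0.430). HFD 2 stood above every other array for both. For Krt1, HFD 3 and 4 were also above ND 1 to 3, and HFD 1 lay within the range of ND 1 to 3. For Krt10 the remaining arrays of both diets overlapped. Without HFD 2 the changes were 0.63 for Krt1 and 0.20 for Krt10, and without ND 2 that of Krt10 was 0.26. ND 4 had 6.75 for Krt1 and 9.78 for Krt10, above ND 1 to 3 in both, and with it the changes were 0.88 and 0.45. Neither gene passed in any setting tried.

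The other suprabasal keratins differed less. Krt78 had 7.99, 8.25, 8.27 and 8.10 in HFD 1 to 4, against 8.05, 7.83 and 7.87 in ND 1 to 3, with HFD 1 among the ND values (change 0.24, SE 0.10, limma adjusted p = 0.207). Krt80 had 6.27, 6.81, 6.38 and 6.51 in HFD 1 to 4, against 6.61, 6.51 and 6.55 in ND 1 to 3, with no order between the diets (change −0.06, SE 0.12). Krt2, a keratin of the uppermost living layers in some skin sites, had 4.07, 4.10, 4.06 and 4.12 in HFD 1 to 4, against 3.96, 3.91 and 3.98 in ND 1 to 3. The diets did not overlap, and Krt2 was the only keratin of which this held with HFD above, where 9.95% of all genes did so above and 7.99% below. Krt2 rose by 0.14 (SE 0.03, limma adjusted p = 0.0397), which is 1.10-fold. Its mean signal of 4.03 was below the median of the olfactory and vomeronasal genes (4.56), and ND 4 had 4.06, within the HFD range. The call was lost without any 1 of HFD 2, 3 and 4 or ND 1, 2 and 3, with ND 4, with the replicate number as a block, without the mean trend, with the RNA quality covariate, and when arrays were centred on their medians (change 0.13, adjusted p = 0.0550). Over all alternatives its adjusted p ran from 0.0334 to 0.999.

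Keratins of stressed epidermis and of the outer root sheath were near the yardstick. Krt6a, induced in wounded skin, had 5.95, 6.01, 6.82 and 6.16 in HFD 1 to 4, against 5.92, 6.03 and 6.01 in ND 1 to 3. HFD 3 alone stood out, in all 3 probe sets of the gene (6.82, 6.67 and 5.20), and the change of 0.25 (SE 0.18, limma adjusted p = 0.463) became 0.05 without it. Krt16, a type I keratin induced with Krt6a, was also highest in HFD 3 (5.95), at a signal below the yardstick's 95th percentile (change 0.22, SE 0.09, adjusted p = 0.181). Krt6b was at 4.09 to 4.16 in HFD and 4.11 to 4.19 in ND.

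Of the inner root sheath and follicle duct keratins, Krt79, which marks the upper duct of the follicle, had 6.10, 7.47, 6.09 and 6.39 in HFD 1 to 4, against 5.86, 6.15 and 5.71 in ND 1 to 3. HFD 2 was again the highest array, and the change was 0.61 (SE 0.29, limma adjusted p = 0.249) and 0.29 without it. Krt73, of the inner root sheath, had 6.44, 6.21, 6.24 and 6.24 in HFD 1 to 4, against 6.37, 6.48 and 6.56 in ND 1 to 3. It had the most negative change of any keratin (−0.19, SE 0.08, adjusted p = 0.220), with HFD 1 among the ND values. Krt25, Krt26, Krt27, Krt71 and Krt75 of the same class were below the yardstick's 95th percentile, with changes from −0.01 to 0.15.

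Hair shaft keratins showed no difference beyond their spread. Krt34 had 7.16, 7.16, 7.31 and 7.21 in HFD 1 to 4, against 7.22, 7.19 and 7.11 in ND 1 to 3. Its change was 0.04, with a 95% interval of −0.14 to 0.21. Krt81 had a change of −0.03 (interval −0.22 to 0.16) and Krt33b one of −0.04 (interval −0.21 to 0.13), with HFD ranges of 6.37 to 6.65 and 6.23 to 6.46 that overlapped the ND ranges of 6.51 to 6.60 and 6.40 to 6.43. The other 7 shaft keratins were below the yardstick's 95th percentile, and all 10 changes lay between −0.06 and 0.04. The keratin associated proteins, which fill the hair shaft around the keratins, had a median change of −0.002 over 38 genes. Of these 0 were called by limma, where 5.35% of all genes were. At an unadjusted p under 0.05, 1 was higher and 2 lower, where 12.3% and 9.83% of all genes were.

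Of the simple epithelial keratins, Krt7 had 6.10 to 6.29 in HFD and 6.11 to 6.30 in ND, a change of −0.01 (SE 0.08). Krt8, Krt18, Krt19 and Krt20 were below the yardstick's 95th percentile, with changes from −0.003 to 0.08. Krt4 of internal stratified epithelia had 6.27 to 6.58 in HFD and 6.27 to 6.50 in ND (change 0.05, SE 0.09), while Krt12 and Krt13 were dim. Krt42, a type I keratin, read at 8.98 to 9.13 in HFD and 9.01 to 9.07 in ND (change 0.01, SE 0.08). Its probe set is of the kind that can bind related transcripts, and its spread within a diet was 0.05. Krt23 (change 0.12, SE 0.09) and Krt88 (change 0.03, SE 0.07) overlapped between the diets, as did Krt222, which was dim (change 0.07, SE 0.07).

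Of the 9 basal and suprabasal keratins, 5 were in the top 1% of all genes by their spread between mice of one diet, as was Krt79 of the follicle duct. The SD within a diet, pooled over HFD 1 to 4 and ND 1 to 3, was 1.13 log2 for Krt77, the rank of 3 among 17097 genes. It was 0.92 for Krt5 (rank 12), 0.88 for Krt1 (rank 14), 0.72 for Krt10 (rank 27), 0.53 for Krt79 (rank 63) and 0.51 for Krt14 (rank 68), where the median gene had 0.11. The other 4 epidermal keratins varied less, with 0.21 for Krt15, 0.18 for Krt80, 0.13 for Krt78 and 0.03 for Krt2, and the hair shaft keratins had a median of 0.075. This measure uses no difference between the diets.

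**Figure D3:**
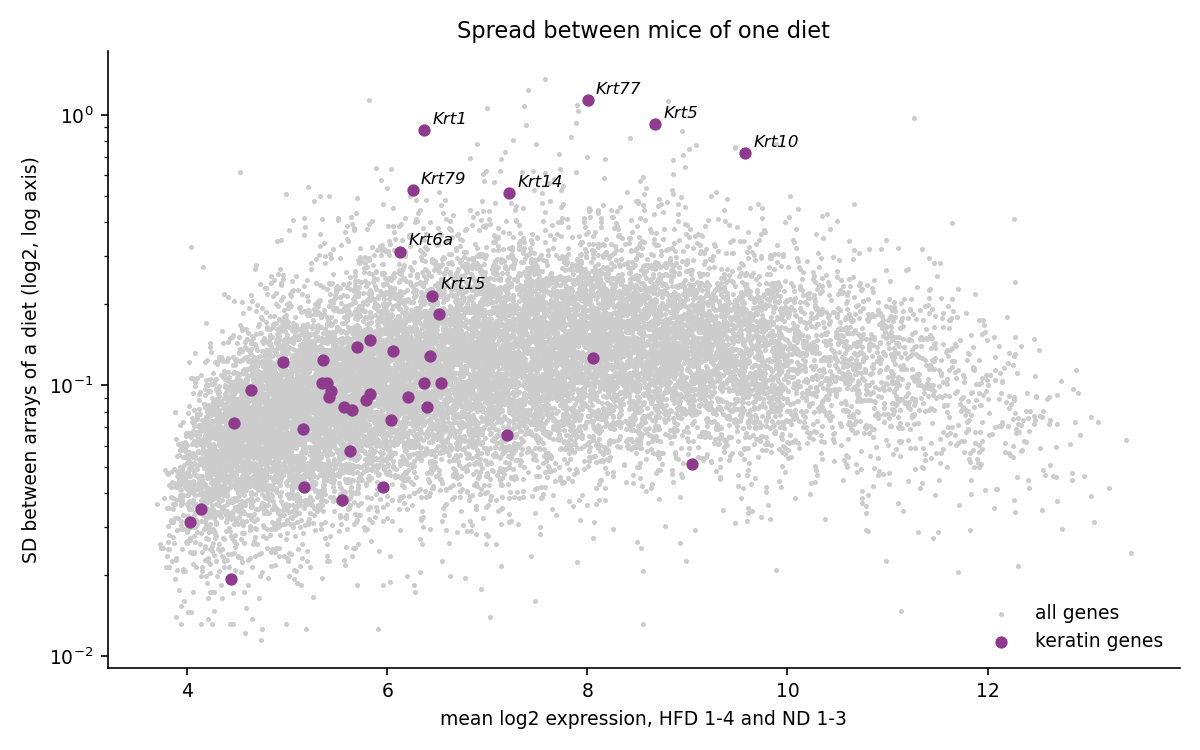
SD between arrays of one diet (log2, on a log axis) against the mean log2 expression over HFD 1 to 4 and ND 1 to 3, for all 17097 genes (grey) and the 41 keratins (purple). Krt77 (1.13), Krt5 (0.92), Krt1 (0.88), Krt10 (0.72), Krt79 (0.53) and Krt14 (0.51) lie at the upper edge, and most other keratins lie inside the cloud.

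Likeness across the 8 arrays is given for the 10 pairs of Krt5, Krt14, Krt1, Krt10 and Krt77, which were chosen after their values were seen, so it is a description with no test. Krt5 and Krt14, the basal pair, had Pearson's r = 0.95 and Spearman's rho = 0.90, and r was 0.86 without HFD 1 and ND 2, the arrays farthest from the median of Krt5. Krt1 and Krt10 had r = 0.93 and rho = 0.87, with r = 0.68 without HFD 2 and ND 2. Krt1 and Krt77 had r = 0.91 and rho = 0.93, with 0.88 without these 2 arrays. Krt10 and Krt77 had r = 0.91 and rho = 0.86, but 0.46 without HFD 2 and ND 2, so that relation rests on them. The 6 pairs across layers had r of 0.64 to 0.72 and rho of 0.64 to 0.76. Without HFD 1 and ND 2, r was 0.21 for Krt5 and Krt10, 0.27 for Krt14 and Krt10, and 0.54 to 0.63 for the other 4 of these pairs. Within the diets r was 0.88 to 0.95 for the 4 pairs within a layer and 0.59 to 0.67 for the 6 across layers. Whether pairs within a layer correlate more than pairs across layers was not tested.

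The balance between the layers differed from mouse to mouse. As a mean deviation from ND 1 to 3, the 3 basal keratins were at −0.44, 0.79, 0.82 and 0.93 in HFD 1 to 4, against 0.28, −0.23 and −0.04 in ND 1 to 3. The 6 suprabasal keratins were at 0.10, 1.43, 0.55 and 0.52 in HFD 1 to 4, against 0.31, −0.39 and 0.08 in ND 1 to 3. HFD 2, 3 and 4 were close to each other in basal keratins, but HFD 2 was far above them in suprabasal ones. Set against Krt5 in the same array, and relative to ND 1 to 3, Krt10 was at 0.59, 0.58, −1.03 and −1.20 in HFD 1 to 4, against −0.34, −0.10 and 0.45 in ND 1 to 3. Relative to ND 1 to 3, Krt5 was higher than Krt10 in HFD 3 and 4 and lower in HFD 1 and 2. ND 4 was at 0.74 for the basal and 0.66 for the suprabasal keratins, above ND 1 to 3 in both.

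**Figure D4:**
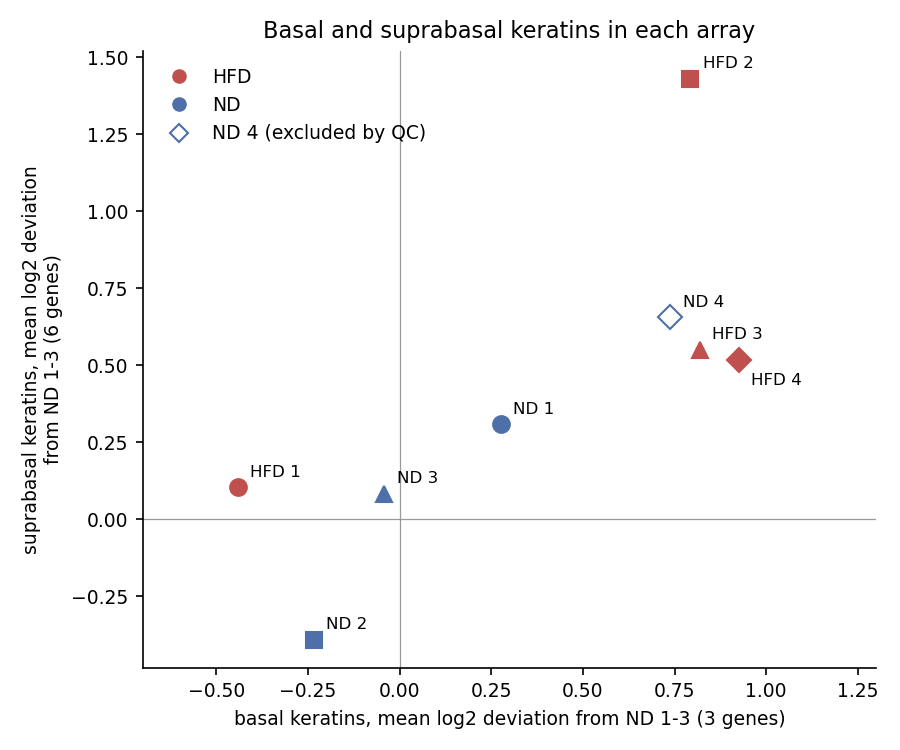
Mean log2 deviation from ND 1 to 3 of the 6 suprabasal keratins (vertical) against that of the 3 basal keratins (horizontal), 1 point per array. HFD 2 (0.79, 1.43) lies above HFD 3 (0.82, 0.55) and HFD 4 (0.93, 0.52), while HFD 1 (−0.44, 0.10) lies left of ND 1 to 3. ND 4, the open diamond, lies at 0.74 and 0.66.

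Epidermal genes other than keratins were then read in the same arrays, from lists of desmosome, hemidesmosome, cornified envelope and other keratinocyte genes. Of 73 measured, 1 was higher, 2 lower and 70 not called (limma), where 2.62% of all genes were higher and 2.73% lower. At an unadjusted p under 0.05, 13 were higher and 2 lower, where 12.3% and 9.83% of all genes were. The median change was 0.10, against 0.02 over all genes. Their summed linear signal was 12876, 17214, 13532 and 13406 in HFD 1 to 4, against 13501, 13087 and 13935 in ND 1 to 3, with HFD 2 alone above ND 1 to 3. This sum is carried by bright genes. The mean log2 deviation of the same genes from ND 1 to 3 was −0.001, 0.36, 0.16 and 0.14 in HFD 1 to 4, against 0.05, −0.03 and −0.02 in ND 1 to 3, with HFD 2, 3 and 4 above ND 1 to 3 and ND 4 at 0.20. HFD 2 was the highest of the 7 arrays for 29 of these 73 genes (39.7%), 5 of the 9 basal and suprabasal keratins (55.6%) and 13.0% of all genes. HFD 1 was the lowest for 25 of the 73 genes (34.2%) and 14.6% of all genes.

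Some genes of these lists shared all or part of the order of arrays seen in the keratins. Perp, a protein of desmosomes, had 6.23, 9.25, 7.48 and 7.67 in HFD 1 to 4, against 6.89, 5.47 and 5.96 in ND 1 to 3 (change 1.55, SE 0.57, limma adjusted p = 0.143). Dsp, which ties keratin filaments to desmosomes, had 7.95, 10.92, 9.33 and 9.43 in HFD 1 to 4, against 8.81, 6.90 and 8.29 in ND 1 to 3 (change 1.41, SE 0.61, adjusted p = 0.205). Both had the shape of Krt77, with HFD 2 highest, ND 2 lowest and HFD 1 inside the ND range. Dmkn (change 1.32, limma adjusted p = 0.218) and Sbsn (change 0.83, adjusted p = 0.154), secreted by differentiating keratinocytes, were also highest in HFD 2, at 10.02 and 9.97. Their other arrays ran differently: Dmkn was lower in HFD 4 (7.64) than in ND 1 (7.96). Sbsn was higher in HFD 1 (8.50) than in ND 1 to 3 (7.92 to 8.21). Col17a1, a collagen of hemidesmosomes in basal cells, had 5.97, 7.60, 7.50 and 7.34 in HFD 1 to 4, against 7.15, 6.55 and 6.79 in ND 1 to 3, with HFD 1 lowest and HFD 2 to 4 above ND 1 to 3 as in Krt5 (change 0.27, SE 0.34, limma adjusted p = 0.708).

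The 3 genes called in these lists did not follow that shape. Klk7, a protease of the cornified layer, rose by 0.36 (SE 0.09, limma adjusted p = 0.0430), with HFD 1 the highest array at 7.81. Plec, a linker of many cytoskeletal filaments made by most cells, had a change of −0.64 (SE 0.15, limma adjusted p = 0.0434). Jup, a junction protein shared by desmosomes and adherens junctions, had one of −0.42 (SE 0.10, adjusted p = 0.0428), and both thus fell. Of 19 hair follicle genes other than keratins 0 were called by limma and 0 had an unadjusted p under 0.05, with a median change of 0.03. Markers of other skin cells were read too. Of 10 melanocyte genes 0 were called and 1, Mitf, was lower at an unadjusted p under 0.05 (change −0.62). Of 8 Merkel cell genes 0 were called and 1, Syp, was higher at such a p (change 0.46). Of 5 sebaceous gland genes 1, Far2, rose (change 0.39, limma adjusted p = 0.0300). Of 14 intermediate filament genes other than keratins 0 were called and 2 were higher at an unadjusted p under 0.05, with a median change of 0.05. Over all genes 5.35% were called, and at an unadjusted p under 0.05, 12.3% were higher and 9.83% lower.

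**Figure D5:**
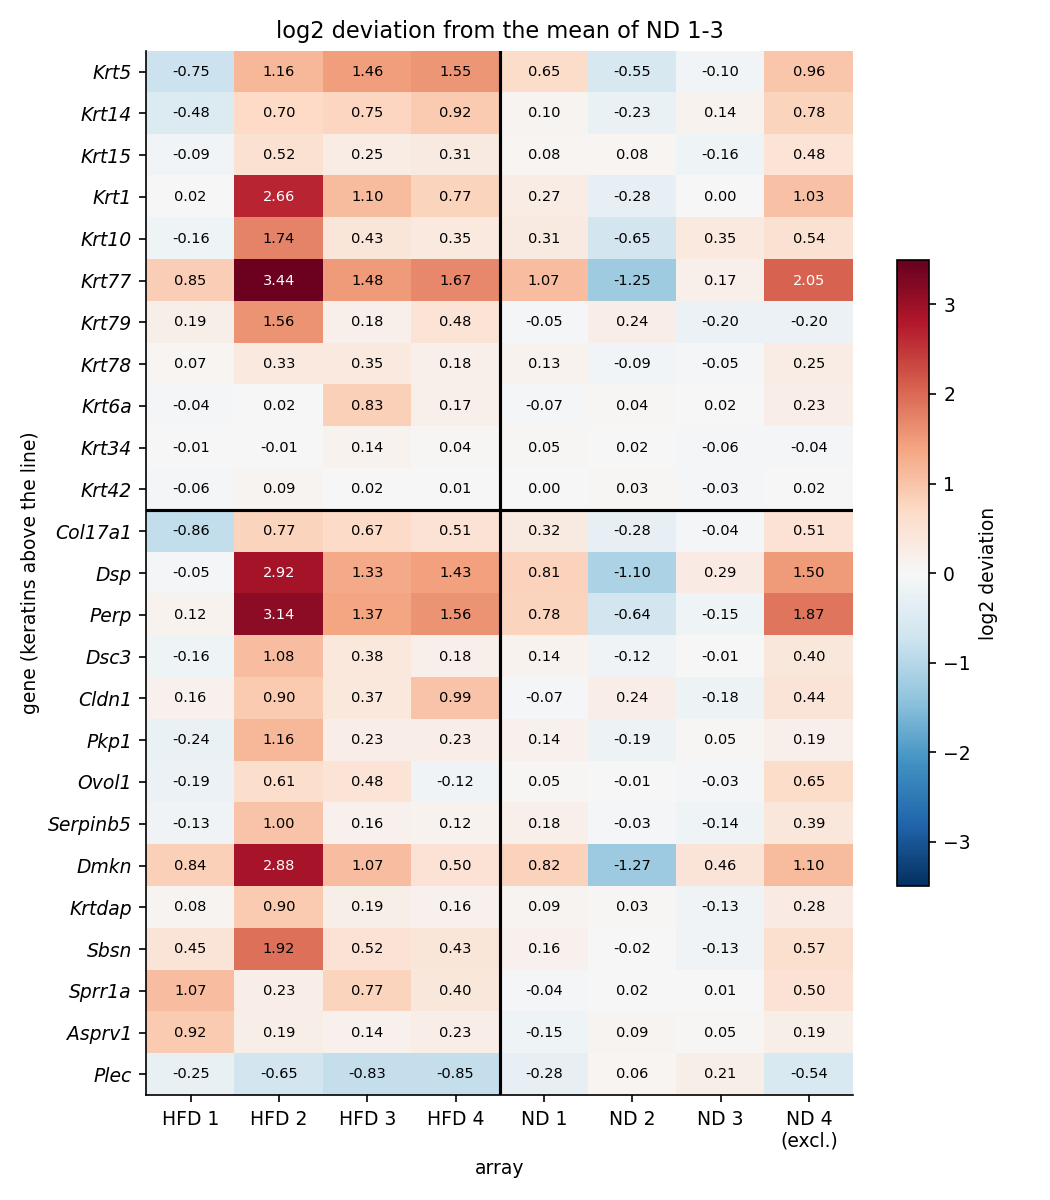
Log2 deviation of each array from the mean of ND 1 to 3 for 11 keratins (above the line) and all 14 other epidermal genes with an SD over the arrays of at least 0.3 (below it), HFD left of ND, with ND 4 last. HFD 2 is the reddest column for Krt1 (2.66), Krt10 (1.74), Krt77 (3.44), Dsp and Perp, while Krt34 and Krt42 stay within 0.14 of 0.

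The genes most like the mean of Krt5 and Krt14 over the 8 arrays were sought among 1018 genes other than keratins with an SD of at least 0.3. The 10 with the highest Pearson r were Col17a1 (0.94), Gpr1 (0.92), Abca8a (0.91), Smc5 (0.87), Gpr137b (0.87), Dusp26 (0.85), Agtr1a (0.83), Hivep2 (0.83), Dsp (0.82) and Aldh1a1 (0.81). Of these, Col17a1 and Dsp were on the epidermal lists, and Hivep2 (change 0.52, limma adjusted p = 0.0462) and Aldh1a1 (change 0.89, adjusted p = 0.0397) rose between the diets. Of 14 epidermal genes with that SD, 3 had r over 0.7, their median r was 0.59, and 5.21% of the 1018 genes exceeded 0.7. Others of the 14 ran differently. Sprr1a and Asprv1, genes of the cornified layer, were highest in HFD 1, at 7.17 and 7.69, and Plec had r = −0.84 to the basal pair. These values describe 8 arrays and carry no test.

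Markers of the sort and other values were read beside these results. Epcam, against which the cells were sorted, was dim, at 5.27 ± 0.11 in HFD (SD, n = 4) and 5.23 ± 0.02 in ND (SD, n = 3). It had 5.11, 5.31, 5.30 and 5.35 in HFD 1 to 4, against 5.21, 5.24 and 5.25 in ND 1 to 3. The change was 0.03 (SE 0.06, limma adjusted p = 0.816), and ND 4 was at 5.33. Pecam1 (CD31), also sorted against, was not dim. Its mean over HFD 1 to 4 and ND 1 to 3 was 6.92, above the yardstick's 95th percentile of 5.96. Its change was 0.19 (SE 0.15, limma adjusted p = 0.507). The same mean was below that percentile for Cd24a (CD24, 5.73), Kit (CD117, 4.25) and Ptprc (CD45, 4.05). The source of the Pecam1 signal was not tested. Cd34 was at 12.10 in HFD and 12.08 in ND. Pdgfra had 6.39, 6.49, 6.02 and 6.17 in HFD 1 to 4, against 5.97, 6.01 and 5.79 in ND 1 to 3 (change 0.34, limma adjusted p = 0.103). The vimentin gene Vim had 12.54 ± 0.06 in HFD (SD, n = 4) and 12.54 ± 0.10 in ND (SD, n = 3), and Col1a1, the main fibroblast collagen, was at 13.23 in HFD and 13.20 in ND. Of 12 fibroblast identity genes, these 2 among them, 1 was called higher and 2 lower, where 2.62% and 2.73% of all genes were. S100a4 rose by 0.49 (limma adjusted p = 0.0224). Fbln1 (change −0.26, adjusted p = 0.0329) and Lum (change −0.335, adjusted p = 0.0359) fell. As a sign of RNA quality, the signal at the 3′ end less that at the 5′ end, averaged over the control probe sets of Actb and Gapdh, was −0.40, −0.44, −0.38 and −0.44 in HFD 1 to 4, against −0.29, −0.34 and −0.18 in ND 1 to 3. ND 4 was at −0.37. This measure separated HFD 1 to 4 from ND 1 to 3, so its part and that of the diet cannot be told apart. Beyond the fit that follows, its part in the keratin values was not tested. With it as a covariate in limma the changes were 1.96 for Krt77 (SE 1.16), 0.82 for Krt1 (SE 0.89), 0.75 for Krt5 (SE 0.95) and 0.52 for Krt14 (SE 0.54). The SE of Krt5 was 0.50 without the covariate. No keratin was called, but 0 of all 17097 genes were either, so the lack of a call is not particular to keratins.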

How the data were processed

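The values are log2 signals of 45141 probe sets on 8 arrays, as deposited. The authors ran affy and RMA, per the submitters' processing notes, and their versions are not given in the sources used here. Quartiles of the arrays lie within 0.04 log2 of each other, which RMA brings about, so a change in total RNA could not be seen.

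Names of probe sets come from the platform annotation, with symbols updated through a GRCm38.p6 gene table. Per gene the brightest probe set naming only that gene was kept, by its mean over HFD 1 to 4 and ND 1 to 3. Diets were compared with limma 3.58.1 in R 4.3.3 (lmFit, then eBayes with a mean trend), with Benjamini-Hochberg adjustment over 17097 genes and a threshold of 0.05. In 10 simulations with 200 genes changed, this fit of the diets recovered 94.3% of changes of 1 log2 and 62.9% of changes of 0.5, with 4.64% false calls. The changed genes were picked at random, and the noise was independent between genes at each gene's own SD. Recovery was not computed for genes as variable as Krt5 (SD 0.92) or Krt77 (SD 1.13), where the median gene had 0.11. Keratin classes and gene lists were chosen with earlier results of these data known. Genes open to naming were keratins above the receptor gene percentile or called, the sort genes and the 10 most like Krt5 and Krt14. Up to 4 genes of each other list, by smallest p, were open to naming too, and not all of these are named. Vim and Col1a1 were added outside that order. Dsp, Col17a1, Asprv1, the dim keratins and the dimmer probe sets were named after their values were seen. Proteins had been planned and are not shown. No pairing by specimen number was seen: the deviations from the diet means correlated at −0.08, −0.27 and −0.05 for numbers 1, 2 and 3. Such correlations over all probe sets cannot exclude a pairing. No array was a duplicate, the smallest SD of a difference being 0.165.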

Additional observations from a re-analysis of the deposited data

Results flagged for a closer look

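HFD 1 lay far below the other HFD arrays in the basal pair Krt5 and Krt14, and above them in Krt73. Krt5 was at 7.44 in HFD 1 and at 9.35 to 9.74 in HFD 2 to 4, and Krt14 at 6.47 in HFD 1 and at 7.65 to 7.87 in HFD 2 to 4. Krt73 was at 6.44 in HFD 1 and at 6.21 to 6.24 in HFD 2 to 4. In each the gap to the next array exceeded Dixon's critical share of the range for 4 samples. This held for 3 of 20 keratins checked, where chance flags about 1 in 20, and Krt5 and Krt14 are not independent of each other.

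ND 4 entered the fits only as an alternative, and it was above ND 1 to 3 by more than the SD within a diet in 4 of the 20 keratins. It had 7.73 for Krt14, 6.79 for Krt15, 6.88 for Krt81 and 4.06 for Krt2. In 12 of the 20 keratins it was above all of ND 1 to 3 by any amount. The share of all genes for which this held is not given here, so these counts are not a result about keratins. The 74 receptor genes of the yardstick had a mean deviation from ND 1 to 3 of 0.08 in ND 4, against −0.02 to 0.05 in the other arrays. Dim signal was thus raised in ND 4, and its part in the value of Krt2 was not tested.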

How the results depend on the processing

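The count of keratins called was 1, and 0 to 4 when arrays were left out in turn. It was 0 with all 8 arrays, the replicate block, brighter genes (where Krt2 was not tested), median centring, no trend or the 3′ minus 5′ covariate. Of all genes 914 were called, and 6 to 1072 with an array left out. With all 8 arrays 6 were called, with the replicate block 1, with the mean of probe sets 400, with the covariate 0, and at an adjusted p under 0.1 the count was 1947. The block is a number that specimens share, not a known pairing. The median change of hair shaft keratins ranged from −0.035 to 0.01125 with an array left out, the highest being without ND 1. That of basal and suprabasal keratins was 0.20 without HFD 2, 0.79 without HFD 1, 0.28 with all 8 arrays and 0.32 with the replicate block.

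Signs turned in 9 of the 20 keratins recomputed one by one, none of them called. With the 3′ minus 5′ covariate Krt15 was at −0.071, Krt79 at −0.10, Krt33b at 0.0117, Krt4 at −0.10, Krt42 at −0.0525 and Krt88 at −0.12. Krt4 was at −0.005 with all 8 arrays, −0.0071 with the mean of its probe sets and −0.066 without probe sets that can bind related transcripts. With an array left out, changes ranged from −0.17 to 0.01 for Krt80, −0.07 to 0.023 for Krt81, −0.063 to 0.013 for Krt33b, −0.065 to 0.03 for Krt7, −0.01 to 0.11 for Krt4, −0.01 to 0.04 for Krt42 and −0.025 to 0.09 for Krt88. The causes were not tested. Signal near the yardstick limits what can be read for 22 of the 41 keratins, Krt2 among them.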
